A study of Mus musculus with 20 samples.

Results

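Hearts of CKO mice were compared with control hearts 2 weeks after TAC, or transverse aortic constriction, an operation that tightens the aortic arch and so loads the left ventricle with pressure. The comparison was defined by the labels alone: CKO hearts 13 and 31 against control hearts 11 and 32, which are 4 of the 20 hearts of the series. Both groups were C57BL/6 mice labelled Wnt5a floxed. The CKO mice carried Myh6-Cre/Esr 1 in addition, in which the promoter of the heart muscle myosin gene Myh6 drives a Cre recombinase joined to part of the oestrogen receptor. Tamoxifen switches such a Cre on, and the labels list hearts of both genotypes taken at the end of tamoxifen treatment. Because the controls carried no Cre, effects of Cre itself and effects of Wnt5a loss cannot be told apart here. Myh6 restricts the Cre to heart muscle cells, whereas the RNA came from heart tissue with its fibroblasts, vessels and blood. Sex and age are not given in the sources used here, and the labels give every library its own heart number without naming the animal.

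The series measured messenger RNA by stranded RNA sequencing in 10 groups of 2 hearts: both genotypes at the end of tamoxifen, and at 2 and 4 weeks after sham operation or TAC. Its title joins Wnt5a to YAP in how heart muscle cells sense load, and the comparison asks which transcripts of the loaded heart differ when Wnt5a is removed from those cells. Besides the 4 hearts, the text uses the sham hearts of 2 weeks (control 12 and 16, CKO 14 and 15) and the TAC hearts of 4 weeks (control 1 and 2, CKO 3 and 41).

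Wnt5a is a secreted ligand that mostly acts through Frizzled and Ror receptors without stabilising beta-catenin. YAP is a co-activator of the Hippo pathway that has no DNA-binding domain and reaches DNA through TEAD proteins. Under pressure overload heart muscle cells return to genes of foetal life, such as those of the natriuretic peptides, and fibroblasts become active and lay down matrix. In whole-heart RNA, fewer cells of a type and less RNA per cell cannot be told apart.

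Levels are FPKM (fragments scaled to transcript length and to the mapped fragments of the library), given for control hearts 11 and 32 and then for CKO hearts 13 and 31. Differences are CKO minus control on the log2(FPKM + 0.5) scale with the standard error (SE) of limma, n = 2 hearts a group. A gene passed when its Benjamini-Hochberg adjusted limma p over all 12589 genes tested was under 0.05.

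Wnt5a itself (mm10 chromosome 14, 28504750 to 28527448, plus strand) stood at 1.76 and 1.58 FPKM in control and at 1.46 and 1.04 FPKM in CKO hearts. Both CKO hearts lay below both control hearts, with a difference of -0.32 ± 0.21 that did not pass (limma adjusted p = 0.59). The CKO pair lay below the control pair in sham hearts of 2 weeks as well, at 2.55 and 3.06 against 1.76 and 2.11 FPKM. At 4 weeks after TAC the values were 2.06 and 1.68 against 1.57 and 0.853 FPKM, and neither difference passed. A gene-level FPKM also counts exons that remain after recombination, and other heart cells keep their Wnt5a. The part of either in these values was not tested. Esr1 (chromosome 10, 4611593 to 5005614, plus strand), the oestrogen receptor gene whose sequence is part of the transgene, stood at 0.228 and 0.185 FPKM in control and at 197 and 395 FPKM in CKO hearts. Its difference of 8.63 ± 0.29 (limma adjusted p = 1.0e-09) sets the genotypes apart in the direction of the labels. Markers of ventricular heart muscle were high in all 4 hearts, with Myl2 at 27350 to 31380 FPKM.

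The 4 tables were alike in scale: summed FPKM was 579596 to 654588, 15144 to 15374 genes were above 0, and relative depth, read from the steps of low values, differed by a factor of 1.11. Across genes, Pearson's r of log2 values was 0.977 between the CKO hearts, 0.970 between the control hearts and 0.965 to 0.969 across genotypes. Control heart 11 held more of the atrial transcripts Myl7 and Myl4 than the other 3 hearts. Myl7, the atrial regulatory light chain, stood at 72.6 and 1.66 FPKM in control hearts and was listed at 0 in both CKO hearts. Myl4, the atrial essential light chain, stood at 64.3 and 5.64 against 4.78 and 3.54 FPKM. Of 11 measured atrial markers 1 fell in CKO hearts (Nppa) and 0 rose, with a median of -0.09. Both CKO hearts lay below both control hearts in 4 of the 11, against 18.3% of all genes. They lay above them in 3, Kcna5 among these, against 22.3% of all genes.

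After TAC, most genes that passed with every heart kept were lower in CKO hearts, and they were led by overload genes of heart muscle and by matrix genes. With limma, 52 of 12589 genes passed (0.413%), of which 12 were higher (0.0953%) and 40 lower (0.318%) in CKO. The 2 hearts of one genotype did not overlap with those of the other in any of the 52, which were chosen on these same hearts. Over all genes tested, both CKO hearts lay below both control hearts in 18.3% and above them in 22.3%. Differences reached -3.09 for Sprr1a among the falls and, with Esr1 left out, 1.74 for Ces1d among the rises, and 26 of the 52 were at least 1 in size. At an unadjusted p under 0.05, 836 genes were higher (6.64%) and 770 lower (6.12%), and the median over all genes was 0.02. Counts of list members at that unadjusted p, given below, are to be read beside these shares. Quantile normalization passed 110 genes, 43 higher and 67 lower, so that falls made up 60.9% of its calls against 76.9%. Without CKO heart 13, falls and rises were close in number, in a fit that leaves 1 CKO heart in its group. Falls still led without each of the other hearts.

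The count rested on all 4 hearts. Without CKO heart 31, 7 genes passed, among them 6 of the 52, with Clu, Des, Esr1, Gpm6b and Xirp2 included. Without control heart 32, 5 passed, all of them among the 52 (Clu, Comp, Des, Esr1 and Ppp1r3c). Without control heart 11, 119 passed, 34 of the 52 among them, and without CKO heart 13, 67 passed with 26 of the 52. A fit of the 4 hearts alone passed 9 genes, and 4 of the 52 were among them (Esr1, Nppa, Thbs4 and Xirp2). All 52 kept their sign in every one of these fits, and Clu, Des and Esr1 passed whichever single heart was left out.

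**Figure D1:**
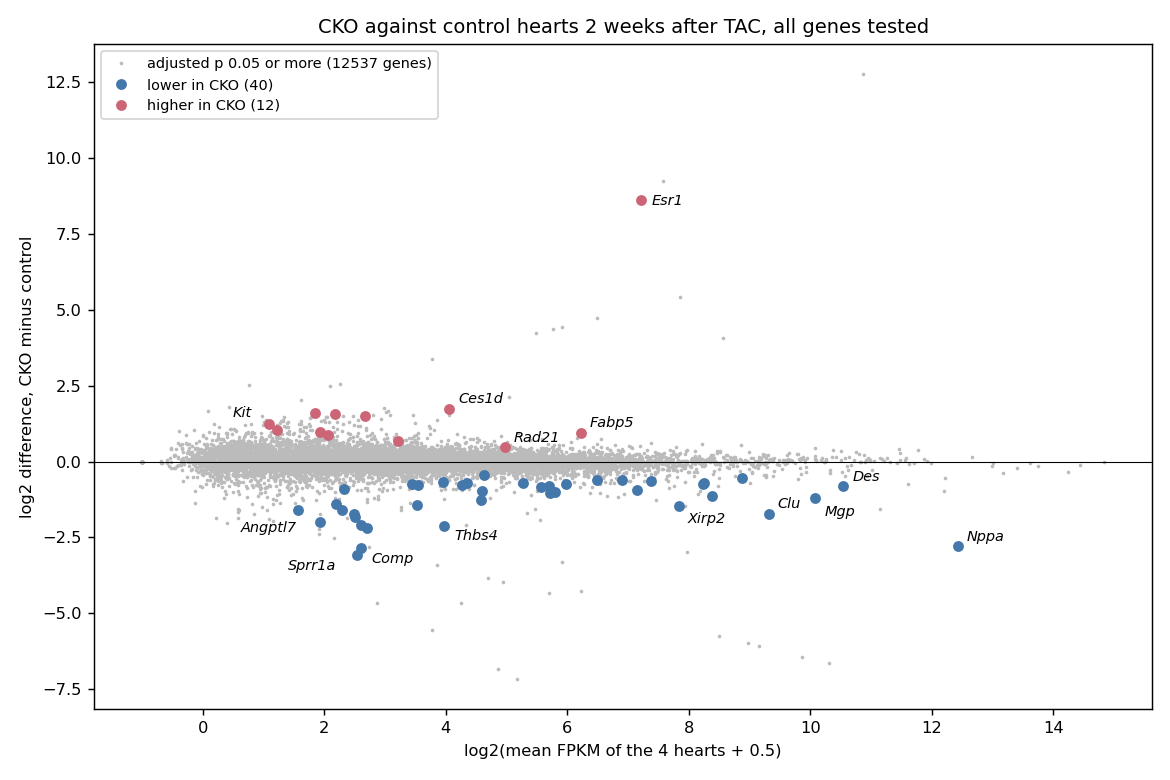
Each point is 1 of 12589 genes, with the mean level of the 4 hearts on the x axis (log2 of FPKM + 0.5) and the log2 difference, CKO minus control, on the y axis; coloured points have a limma adjusted p under 0.05. The 40 falls run from low levels (Sprr1a, Comp) to the very abundant Nppa, Des and Mgp, and Esr1 has the highest value of the 12 rises, at 8.63; grey points far from 0 include small RNAs listed at 0 FPKM in some hearts, such as Mir1892.

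RefSeq promoter sequence (GRCm38.p6, the assembly of mm10) was at hand for 8944 of the tested genes and 32 of the 52. The 250 bases before the start were searched on both strands for CATTCC, the core of the TEAD motif through which YAP acts, and for TGANTCA, the AP-1 motif of the load-induced Fos and Jun proteins. The MEF2 motif and the CArG box, bound by muscle factors, were searched as well. CATTCC lay in 4 of the 27 falls with a window (14.8%) and in 10.9% of all windows. TGANTCA lay in 4 of the 27 (14.8%) and in 4.25% of all windows. The MEF2 motif lay in 1 of the 27 (3.7%, against 1.84% of all), and the CArG box in 2 (7.41%, against 1.22%). None of the 5 rises with a window held any of the 4 motifs.

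The windows of 4 falls are printed from 5′ to 3′, with matches to these motifs in capitals, to set windows with a TEAD core beside those of load-induced muscle genes that have none. Thbs4 encodes thrombospondin 4, a matrix protein (chr13:92794819-92795068, minus strand). Dio2 encodes the deiodinase that activates thyroid hormone (chr12:90739039-90739288, minus strand). Nppa encodes atrial natriuretic peptide (chr4:148000472-148000721, plus strand). Xirp2 encodes an actin-binding protein of the intercalated disc (chr2:67445752-67446001, plus strand).
Thbs4: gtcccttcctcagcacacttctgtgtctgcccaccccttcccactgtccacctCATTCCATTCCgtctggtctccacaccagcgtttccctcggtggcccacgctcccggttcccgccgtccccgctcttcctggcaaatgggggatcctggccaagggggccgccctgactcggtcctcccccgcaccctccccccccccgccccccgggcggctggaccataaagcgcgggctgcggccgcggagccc
Dio2: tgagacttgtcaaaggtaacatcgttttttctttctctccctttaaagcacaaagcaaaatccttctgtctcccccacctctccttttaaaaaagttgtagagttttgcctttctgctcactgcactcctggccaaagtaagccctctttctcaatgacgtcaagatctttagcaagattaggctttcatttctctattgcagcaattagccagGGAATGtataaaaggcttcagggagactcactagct
Nppa: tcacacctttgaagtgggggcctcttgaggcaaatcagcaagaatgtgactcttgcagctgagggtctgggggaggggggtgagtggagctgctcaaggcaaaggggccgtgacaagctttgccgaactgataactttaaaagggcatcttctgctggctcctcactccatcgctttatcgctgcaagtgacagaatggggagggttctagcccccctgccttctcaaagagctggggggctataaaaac
Xirp2: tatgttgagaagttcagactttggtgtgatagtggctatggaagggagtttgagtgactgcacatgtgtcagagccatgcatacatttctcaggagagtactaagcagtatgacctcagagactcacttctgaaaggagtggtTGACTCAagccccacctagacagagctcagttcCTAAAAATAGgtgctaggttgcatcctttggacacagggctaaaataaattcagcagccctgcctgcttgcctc
Thbs4 has CATTCC at 197 and again at 192 bases before the start, with 1 shared base. Dio2 has it on the other strand, as GGAATG, 36 bases before the start. That start is the one of RefSeq, which lies 600 bases upstream of the gene start in GENCODE M21, whereas the 2 annotations share the start of the other 3 genes. Xirp2 has TGACTCA at 107 bases and a MEF2 match at 74 bases before the start, and the window of Nppa, the most abundant of the falls, held none of the 4 motifs.

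Of 21 measured members of the foetal and overload programme 4 fell in CKO hearts (Nppa, Xirp2, Clu and Des) and 0 rose, the median difference was -0.86, and 12 were lower and 0 higher at an unadjusted p under 0.05. In 15 of the 21 both CKO hearts lay below both control hearts, against 18.3% of all genes tested.

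Nppa (chromosome 4, 148000722 to 148002079, plus strand) stood at 9118 and 10098 FPKM in control and at 1489 and 1278 FPKM in CKO hearts. Both control hearts were high and both CKO hearts low, with no overlap, a ratio of the means of 6.95 and a difference of -2.80 ± 0.55 (limma adjusted p = 0.043). The sham hearts stood at 116 to 625 FPKM, below all 4 TAC hearts. Nppa is also an atrial gene. Leaving out the 5 hearts of Myl7 at 10 FPKM or more, control heart 11 among them, leaves control heart 32 alone in its group. Nppa was at -2.87 in that fit. Its call depended on the fit. It was lost with any 1 of the 4 hearts left out and kept without the Myl7 hearts, and these fits leave 1 heart alone in a group. The difference was -2.87 without control heart 11, -2.72 without 32, -2.91 without CKO heart 13 and -2.69 without 31. With every heart kept, Nppa did not pass without any filter on low levels (limma adjusted p = 0.0558) or with a prior without trend (0.0615).

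Clu (chromosome 14, 65968483 to 65981547, plus strand), which encodes the secreted chaperone clusterin, stood at 965 and 984 FPKM in control and at 323 and 270 FPKM in CKO hearts. The control hearts were nearly equal, and the CKO hearts lay even below the sham hearts, at 371 to 416 FPKM. Its difference of -1.72 ± 0.12 had the smallest adjusted p among the falls (limma adjusted p = 7.1e-06). Xirp2 (chromosome 2, 67446002 to 67526614, plus strand) stood at 325 and 346 against 116 and 123 FPKM, a difference of -1.48 ± 0.18 (limma adjusted p = 0.0027). Both CKO hearts stayed above the sham hearts, at 53.6 to 65.0 FPKM.

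Des (chromosome 1, 75360329 to 75368579, plus strand), which encodes desmin, the intermediate filament that ties muscle Z-discs together, stood at 1789 and 2018 FPKM in control and at 1133 and 1020 FPKM in CKO hearts. The CKO hearts overlapped with the sham hearts, at 975 to 1068 FPKM, and both control hearts lay above all of them. The difference was -0.82 ± 0.08 (limma adjusted p = 5.4e-04).

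Other members of the list had large differences that did not pass. Myh7, the foetal beta-myosin heavy chain, stood at 421 and 466 against 58.9 and 52.8 FPKM (-2.98, limma adjusted p = 0.33), and the groups did not overlap. Acta1, skeletal alpha-actin, stood at 3165 and 3533 against 841 and 1518 FPKM (-1.57, limma adjusted p = 0.31). Nppb, which encodes brain natriuretic peptide, stood at 3525 and 4268 against 2052 and 2633 FPKM (-0.74, limma adjusted p = 0.47). Each control heart exceeded each CKO heart in these 3 genes. Xirp1, the relative of Xirp2, stood at 78.5 and 110 against 42.5 and 61.8 FPKM (-0.86, limma adjusted p = 0.063). Cryab, the small heat shock protein that binds desmin, stood at 1940 and 1746 against 1777 and 1869 FPKM, so that its groups overlapped.

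**Figure D2:**
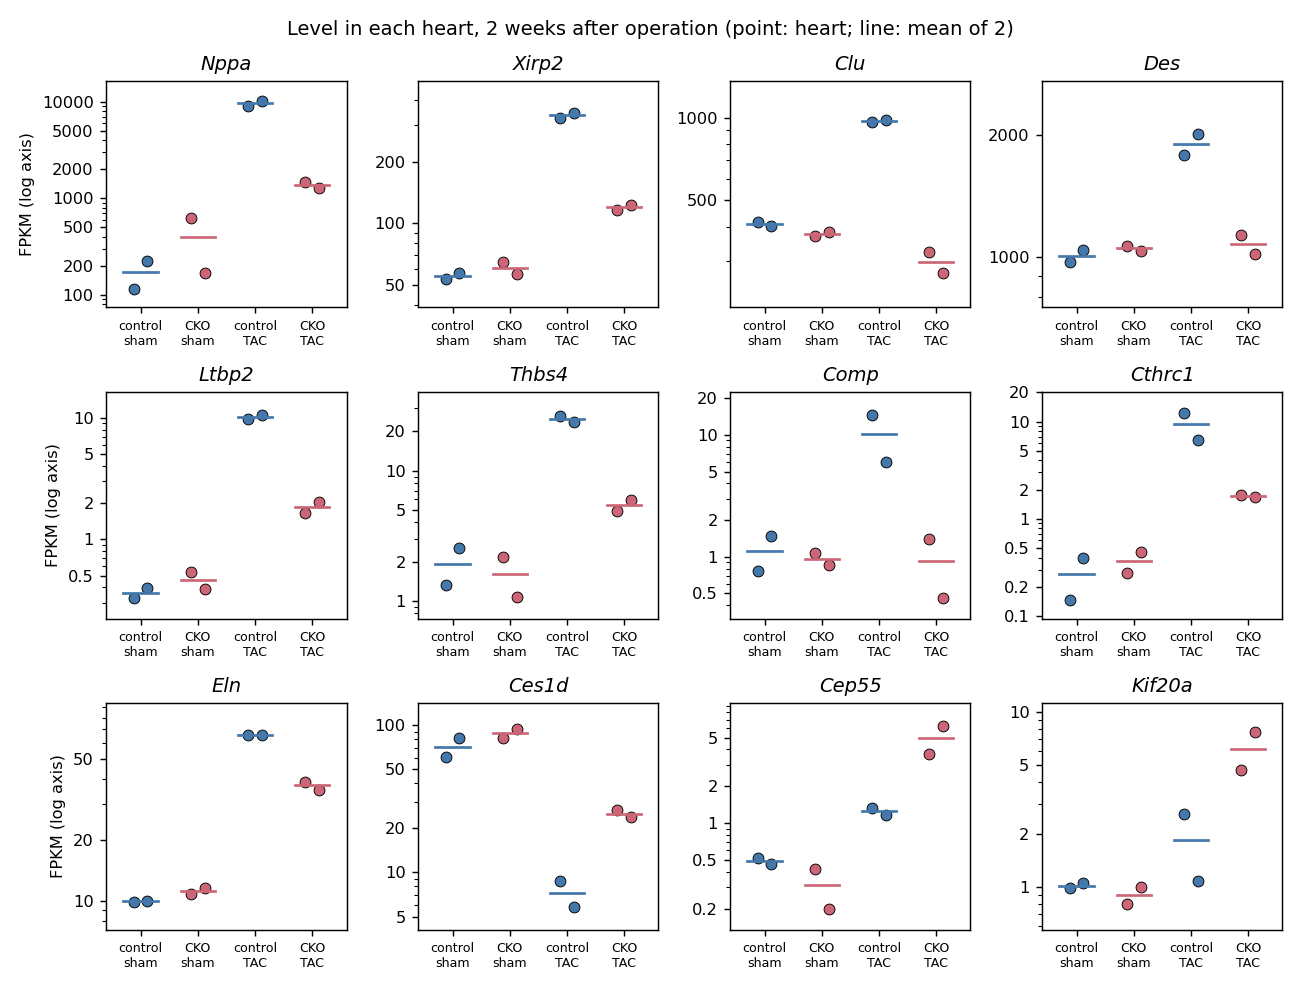
Each panel gives the FPKM of 1 gene on a log axis for control (blue) and CKO (red) hearts 2 weeks after sham operation or TAC; points are hearts and lines the means of 2. In the 9 genes that fell, from Nppa to Eln, both control TAC hearts lie above all sham hearts, while CKO TAC hearts lie below the sham hearts for Clu and overlap with them for Des and Comp; Ces1d is lowest in control TAC hearts, and Cep55 and Kif20a are highest in CKO TAC hearts.

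Sarcomere genes had smaller differences. Of 25 measured sarcomere and Z-disc genes 2 fell (Myom2 and Lmod2) and 0 rose, with a median of -0.27. At an unadjusted p under 0.05, 11 were lower and 0 higher, against 6.12% and 6.64% of all genes. Myom2, which encodes the M-band protein myomesin 2, stood at 421 and 497 against 237 and 184 FPKM (-1.13 ± 0.20, limma adjusted p = 0.027). Lmod2, an actin nucleator that sets thin filament length, stood at 560 and 552 against 402 and 361 FPKM (-0.55 ± 0.09, limma adjusted p = 0.017). In both genes the CKO hearts were at about the level of the sham hearts, which ranged from 189 to 312 FPKM for Myom2 and from 376 to 400 FPKM for Lmod2. The main contractile genes showed smaller values: Myh6, the adult alpha-myosin, stood at 2494 and 3141 against 3100 and 2323 FPKM, and Myl2 at 28528 and 30151 against 31380 and 27350 FPKM, with overlapping groups.

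Of 16 intercalated disc genes, which couple neighbouring muscle cells, 1 fell and 0 rose, and the median was -0.13. The fall was that of Dsp, which encodes desmoplakin, the link between desmosomes and desmin. It stood at 135 and 154 against 103 and 85.6 FPKM (-0.62 ± 0.12, limma adjusted p = 0.038). The sham hearts, at 122 to 142 FPKM, overlapped with the control TAC hearts and lay above both CKO TAC hearts. Ctnnb1, which encodes beta-catenin, stood at 213 and 204 against 218 and 210 FPKM (0.04). Of 20 genes of adult calcium handling 0 rose and 0 fell in limma, with 1 higher and 1 lower at an unadjusted p under 0.05 and a median of -0.13.

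A second group of falls held matrix genes. Of 25 measured matricellular and activated fibroblast genes 4 fell (Comp, Ltbp2, Thbs4 and Cthrc1) and 0 rose, and the median was -0.58. At an unadjusted p under 0.05, 15 were lower and 0 higher, and in 19 of the 25 both CKO hearts lay below both control hearts, against 18.3% of all genes. The median was -0.89 to -0.52 under the alternatives, but the calls depended on the setting. With a pseudocount of 0.1 FPKM Comp passed, while Ltbp2 (limma adjusted p = 0.0567), Thbs4 (0.051) and Cthrc1 (0.103) did not. In a fit of the 4 hearts alone Thbs4 passed, while Comp (limma adjusted p = 0.393), Ltbp2 (0.0592) and Cthrc1 (0.329) did not.

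Ltbp2 (chromosome 12, 84783212 to 84876532, minus strand), a latent TGF-beta binding protein of elastic fibres, stood at 9.78 and 10.6 FPKM in control and at 1.64 and 2.03 FPKM in CKO hearts, a difference of -2.20 ± 0.31 (limma adjusted p = 0.015). Thbs4 (chromosome 13, 92751590 to 92794818, minus strand), whose window holds the doubled TEAD core, stood at 26.2 and 23.7 against 4.91 and 5.89 FPKM (-2.11 ± 0.37, limma adjusted p = 0.026). In both genes the control pair and the CKO pair were each close together, and all 4 TAC hearts lay above the sham hearts, at 0.329 to 0.536 FPKM for Ltbp2 and 1.07 to 2.54 FPKM for Thbs4. Comp (chromosome 8, 70373558 to 70382066, plus strand), which encodes the collagen-binding protein thrombospondin 5, stood at 14.5 and 5.95 against 1.40 and 0.462 FPKM (-2.86 ± 0.46, limma adjusted p = 0.017). Cthrc1, a secreted protein of activated fibroblasts, stood at 12.4 and 6.50 against 1.75 and 1.67 FPKM (-2.10 ± 0.36, limma adjusted p = 0.023). For Comp and Cthrc1 control heart 11 was well above control heart 32, and both lay above the CKO hearts.

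Members of the same list that did not pass leaned the same way in several cases. Cilp, a matrix protein of load-activated fibroblasts, stood at 63.6 and 58.2 against 20.4 and 16.8 FPKM (-1.69, limma adjusted p = 0.065). Postn, periostin, stood at 358 and 413 against 172 and 225 FPKM (-0.97, limma adjusted p = 0.081). Ctgf, a matricellular growth factor and YAP target, stood at 270 and 457 against 107 and 150 FPKM (-1.47, limma adjusted p = 0.12). Control and CKO hearts did not overlap in these 3 genes. In contrast, Sparc, a collagen-binding protein, stood at 771 and 708 against 732 and 781 FPKM, and Acta2, smooth muscle actin, at 55.1 and 87.7 against 62.5 and 95.6 FPKM, and their groups overlapped.

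Elastic fibre and other matrix genes gave single falls. Of 21 genes of elastic fibres and small proteoglycans 1 fell and 0 rose, with a median of -0.37. Eln (chromosome 5, 134702593 to 134747323, minus strand), elastin, stood at 65.7 and 65.8 against 38.7 and 35.3 FPKM (-0.82 ± 0.13, limma adjusted p = 0.017), and all 4 lay above the sham hearts at 9.91 to 11.5 FPKM. Of 28 genes of collagen crosslinking and matrix proteases 1 fell, with a median of -0.26: Mmp3, the protease stromelysin 1, stood at 6.98 and 9.32 against 1.95 and 2.22 FPKM (-1.73 ± 0.27, limma adjusted p = 0.017), with the CKO hearts below all sham hearts, at 3.94 to 7.79 FPKM. Lox, which crosslinks collagen and elastin, stood at 9.19 and 18.9 against 3.38 and 4.79 FPKM (-1.60, limma adjusted p = 0.052). Of 20 measured genes of the TGF-beta pathway, the main profibrotic signal, 1 fell: Tgfb3 stood at 19.7 and 17.6 against 11.7 and 11.4 FPKM (-0.67 ± 0.12, limma adjusted p = 0.032). Tgfb1 stood at 16.7 and 16.1 against 14.9 and 21.9 FPKM, with overlap, and Tgfb2 at 8.78 and 10.5 against 4.05 and 4.18 FPKM (-1.13, limma adjusted p = 0.058).

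Collagen genes did not pass. Of 20 measured, 0 rose and 0 fell in limma, and the median was -0.25. At an unadjusted p under 0.05, 0 were higher and 8 lower, against 6.64% and 6.12% of all genes. Col1a1, the main fibrillar collagen, stood at 65.1 and 66.4 against 36.4 and 52.3 FPKM (-0.59, limma adjusted p = 0.45), and Col3a1 at 227 and 222 against 169 and 200 FPKM (-0.29, limma adjusted p = 0.66). The groups did not overlap in either gene. Under the alternatives run, including each heart left out, 0 to 1 collagen genes passed.

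Of 19 measured fibroblast markers 1 fell (Serpinf1, which encodes the secreted factor PEDF, at 82.8 and 74.1 against 42.0 and 52.8 FPKM) and 0 rose, and the median was -0.33. In 13 of the 19 both CKO hearts lay below both control hearts, against 18.3% of all genes, and 0 to 3 passed under the alternatives. The summed level of the list was 2581 and 2482 FPKM in control and 1831 and 2084 FPKM in CKO hearts. Defining markers stood at different values: Pdgfra, the receptor for platelet-derived growth factor that marks fibroblasts, at 12.5 and 15.1 against 9.45 and 9.73 FPKM (-0.50, limma adjusted p = 0.077), and Tcf21, a fibroblast transcription factor, at 15.3 and 17.1 against 12.5 and 15.2 FPKM (-0.22, limma adjusted p = 0.81). The part of the fibroblast share in the matrix values was not tested.

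The other falls included secreted, signalling and metabolic genes. Sprr1a, a cornified-envelope protein that heart muscle makes under stress, stood at 8.04 and 11.8 against 0.821 and 0.587 FPKM (-3.09 ± 0.50, limma adjusted p = 0.017). It was the fall of greatest size, and the CKO hearts lay within the sham range of 0.453 to 1.31 FPKM. Angptl7, a secreted angiopoietin-like factor, stood at 6.24 and 4.93 against 1.22 and 0.860 FPKM (-1.98 ± 0.34, limma adjusted p = 0.023). Mgp, matrix Gla protein, which blocks calcification, stood at 1633 and 1394 against 742 and 576 FPKM (-1.21 ± 0.21, limma adjusted p = 0.023). Control hearts were high in each of these genes, and the CKO hearts did not reach them.

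Star, which carries cholesterol into mitochondria, stood at 3.51 and 4.37 against 1.04 and 0.899 FPKM (-1.59 ± 0.25, limma adjusted p = 0.017). Dio2 (chromosome 12, 90724552 to 90738438, minus strand) stood at 5.07 and 7.24 against 2.32 and 1.69 FPKM (-1.40 ± 0.23, limma adjusted p = 0.017), with all 4 hearts above the sham hearts, at 0.390 to 0.494 FPKM. Serpinb1c, a serine protease inhibitor, stood at 8.07 and 5.65 against 1.80 and 2.05 FPKM, and Cxcl14, a chemokine, at 13.4 and 19.0 against 6.93 and 4.57 FPKM. For Cxcl14 the sham hearts stood at 14.4 to 18.3 FPKM, near the control TAC hearts and above both CKO TAC hearts.

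Among kinases and their regulators, Prkar1a, the regulatory subunit of protein kinase A, stood at 381 and 369 against 230 and 231 FPKM (-0.70 ± 0.11, limma adjusted p = 0.017). Prkab2, a subunit of AMP-activated kinase, stood at 23.1 and 24.6 against 13.3 and 14.3 FPKM (-0.77 ± 0.11, limma adjusted p = 0.016). Ppp1r3c, which targets a phosphatase to glycogen, stood at 220 and 154 against 98.0 and 92.3 FPKM (-0.95 ± 0.17, limma adjusted p = 0.026). In each the CKO pair lay close together and within the range of the sham hearts. Of 22 immediate early genes 1 fell, the stress gene Ier3, at 57.3 and 64.3 against 30.7 and 36.2 FPKM (-0.85 ± 0.17).

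The 12 falls not yet named were Itgbl1, Fgl2, Crispld2, Svep1, Gpm6b, Nlrp10, Pam, Prune2, Fam105b, Tgm2, Mknk2 and Usp16, from -1.27 to -0.45. Itgbl1, an integrin-like secreted protein, stood at 34.1 and 32.2 against 15.6 and 11.6 FPKM (-1.27 ± 0.20). Svep1, an adhesion protein of the matrix, stood at 5.36 and 6.62 against 2.88 and 3.09 FPKM (-0.89 ± 0.16). Pam, the enzyme that amidates peptide hormones, stood at 396 and 351 against 237 and 212 FPKM (-0.74 ± 0.13). Tgm2, a transglutaminase that crosslinks matrix proteins, and Usp16, a deubiquitinase of histones, had the smaller differences of -0.63 ± 0.12 and -0.45 ± 0.08.

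The genes of the pathway named in the study's title did not pass. Of 4 measured Wnt ligand genes and 17 receptor and co-receptor genes, 0 rose and 0 fell in limma, and unadjusted p was under 0.05 for 0 higher and 1 lower ligand (Wnt5b) and for 2 higher and 0 lower receptors. Fzd4, a Frizzled receptor of vessels, stood at 11.3 and 15.6 against 15.6 and 19.1 FPKM, and Ror1, a receptor for Wnt5a, at 1.23 and 2.28 against 1.11 and 1.78 FPKM. Of 5 measured secreted Wnt antagonists 0 passed, while 4 were lower at an unadjusted p under 0.05, the median was -0.89 and the summed level was 53.2 and 49.1 against 23.2 and 26.8 FPKM. Sfrp1, a secreted Frizzled-related protein, stood at 18.1 and 19.7 against 10.2 and 11.7 FPKM (-0.76, limma adjusted p = 0.12), and Frzb at 11.4 and 14.7 against 5.50 and 8.27 FPKM (-0.89, limma adjusted p = 0.11). Of 7 targets of canonical Wnt signalling 0 passed, with a median of -0.19.

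Yap1 stood at 32.0 and 29.2 against 27.6 and 25.3 FPKM (-0.21, limma adjusted p = 0.44), and its relative Wwtr1, which encodes TAZ, at 31.6 and 33.8 against 31.6 and 32.0 FPKM (-0.04). Of 22 measured genes of YAP, TAZ, TEAD and the Hippo kinases 0 passed in limma, with 0 higher and 4 lower at an unadjusted p under 0.05 and a median of 0.01. Amot, a scaffold that binds YAP, stood at 6.67 and 9.21 against 4.79 and 3.46 FPKM (-0.87, limma adjusted p = 0.056). Of 22 YAP and TEAD target genes 0 passed, with a median of 0.02, equal to that of all genes. At an unadjusted p under 0.05, 2 were higher and 5 lower, against 6.64% and 6.12% of all genes. The summed level of the list was 6414 and 7154 FPKM in control and 3782 and 3207 FPKM in CKO hearts, and abundant members weigh most in such a sum. The targets spread widely: Ctgf and Ankrd1, a stretch-responsive protein of heart muscle, were at -1.47 and -0.98, while Cyr61, the relative of Ctgf, stood at 47.2 and 45.9 against 30.3 and 41.8 FPKM (-0.38, limma adjusted p = 0.81). Birc5, a target that also acts in cell division, stood at 1.55 (limma adjusted p = 0.21).

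**Figure D3:**
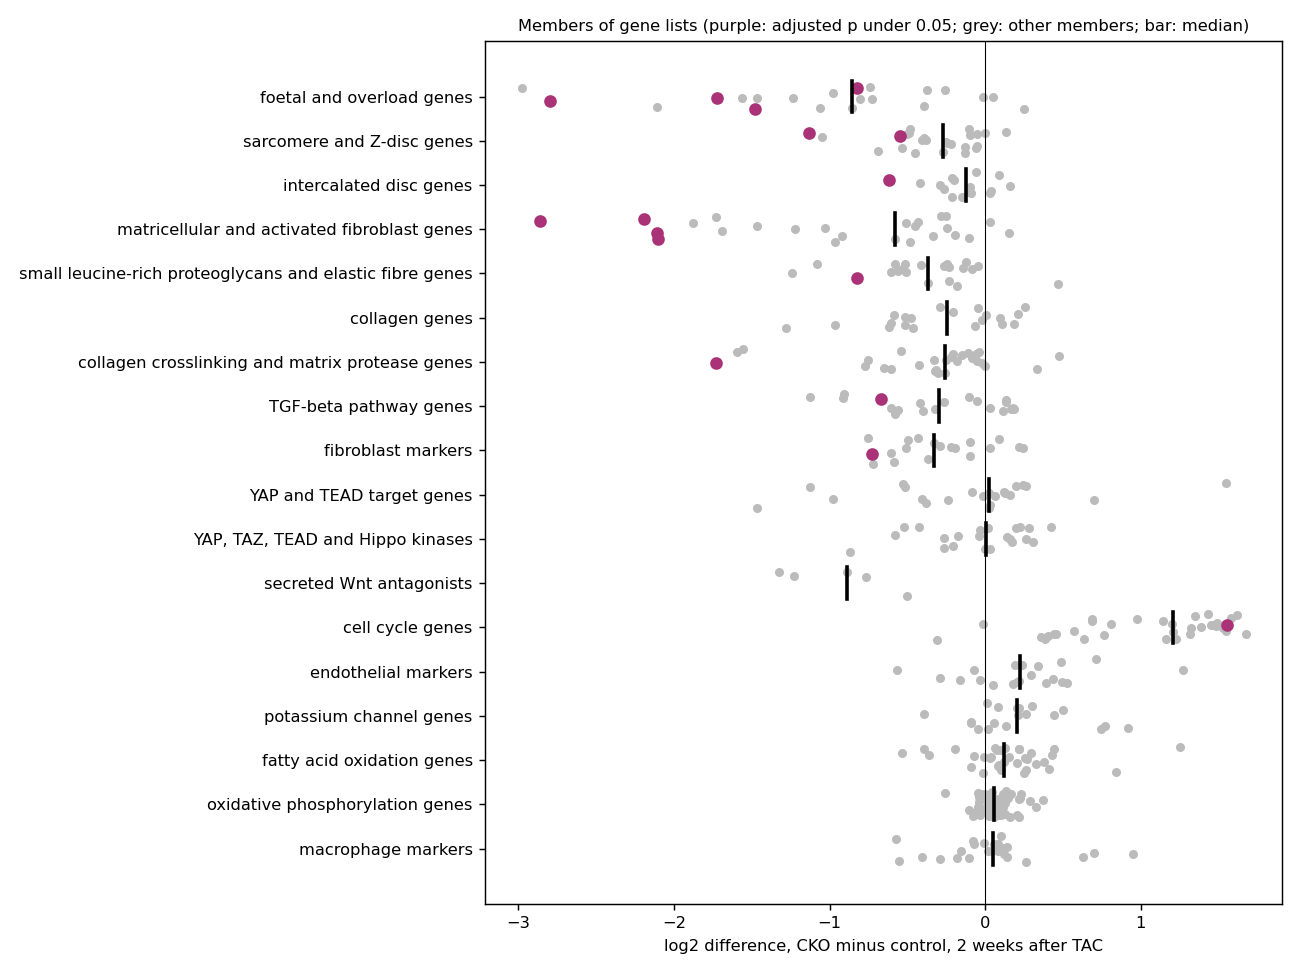
Points are the measured members of 18 gene lists by their log2 difference, CKO minus control, 2 weeks after TAC (x axis); purple points have a limma adjusted p under 0.05, and black bars are medians. Medians are at -0.86 for foetal and overload genes, -0.58 for matricellular genes and 1.20 for cell cycle genes, and near 0 for YAP and TEAD targets and oxidative phosphorylation.

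Of 35 measured cell cycle genes 1 rose (Kif20a) and 0 fell in CKO hearts. A further count without adjustment was larger: 29 were higher and 0 lower at an unadjusted p under 0.05, the median was 1.20, and in 26 of the 35 both CKO hearts lay above both control hearts, against 22.3% of all genes. The summed level of the list was 221 and 158 FPKM in control and 247 and 420 FPKM in CKO hearts, so that heart 31 was high and heart 13 little above heart 11.

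Kif20a (chromosome 18, 34624613 to 34633277, plus strand), a motor protein of cell division, stood at 2.62 and 1.08 against 4.65 and 7.71 FPKM (1.55 ± 0.28, limma adjusted p = 0.028). Cep55 (chromosome 19, 38055011 to 38074423, plus strand), which acts in the last step of cell division and was not on the list, stood at 1.34 and 1.16 against 3.67 and 6.16 FPKM (1.59 ± 0.25, limma adjusted p = 0.017). Lmnb1, lamin B1, a nuclear envelope protein abundant in dividing cells, stood at 3.46 and 2.21 against 6.98 and 10.8 FPKM (1.49 ± 0.27, limma adjusted p = 0.028). In these 3 genes heart 31 was the highest and heart 13 the next. Mki67, the proliferation marker Ki-67, stood at 3.54 and 2.15 against 5.85 and 12.1 FPKM (1.45, limma adjusted p = 0.061), and Top2a at 4.79 and 2.05 against 7.01 and 16.4 FPKM (1.62, limma adjusted p = 0.15). Genes of DNA replication were closer: Pcna stood at 19.1 and 16.4 against 20.8 and 26.1 FPKM (0.39, limma adjusted p = 0.32), and Mcm2 at 5.14 and 2.29 against 3.17 and 7.38 FPKM, with overlap.

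The median of the list was 1.70 without heart 13 and 0.51 with genes under 3 FPKM left out, and 0 to 12 members passed under the alternatives. Without heart 31, the adjusted limma p of Kif20a was 0.223, of Cep55 0.138 and of Lmnb1 0.223. The cells that hold these transcripts cannot be named from whole-heart RNA. Endothelial markers had 0 of 20 passing in limma, a median of 0.23 and summed levels of 760 and 753 against 900 and 959 FPKM. At an unadjusted p under 0.05, 8 of them were higher and 0 lower, against 6.64% and 6.12% of all genes. Macrophage markers, with 0 of 24 passing, 1 higher at an unadjusted p under 0.05 and a median of 0.05, had sums of 987 and 1037 against 962 and 1168 FPKM. The part of either cell type in the cell cycle values was not tested.

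**Figure D4:**
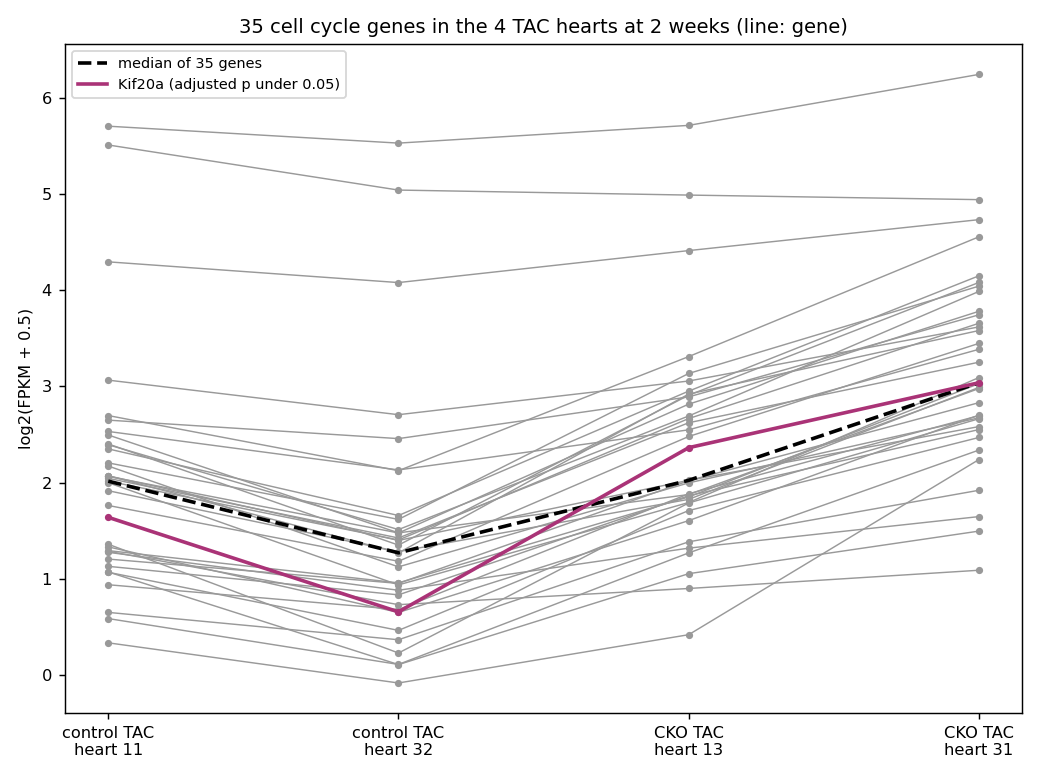
Each grey line joins the log2(FPKM + 0.5) of 1 of 35 cell cycle genes in the 4 TAC hearts of 2 weeks, the dashed line is their median, and the purple line is Kif20a; hearts are on the x axis, grouped by genotype. CKO heart 31 is highest for most genes, and CKO heart 13 stands near control heart 11 in the median.

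The remaining rises were metabolic and other genes. Ces1d (chromosome 8, 93166068 to 93197838, minus strand), a carboxylesterase that cleaves lipids, stood at 8.71 and 5.84 against 26.4 and 23.6 FPKM (1.74 ± 0.28, limma adjusted p = 0.017). All 4 hearts lay below the sham hearts, at 60.5 to 93.7 FPKM, and the CKO hearts lay nearer to them. Gal3st3, Ky and Lgr6 had the same order: Ky, a protein of muscle Z-discs, stood at 1.38 and 0.726 against 2.99 and 2.24 FPKM, with sham hearts at 4.53 to 5.17 FPKM. Fabp5, a fatty acid binding protein, stood at 53.1 and 48.0 against 94.2 and 102 FPKM (0.95 ± 0.15, limma adjusted p = 0.017), above the sham hearts at 39.2 to 47.9 FPKM. Kit, a receptor kinase of mast cells and progenitors, stood at 1.09 and 0.512 against 2.36 and 2.55 FPKM (1.22 ± 0.24, limma adjusted p = 0.044). The sham hearts were in the same order for Kit, at 0.510 and 0.537 FPKM in control and at 1.06 and 0.882 FPKM in CKO. Of 11 measured neutrophil and mast cell markers, Kit alone rose and 0 fell, and the median was -0.27. Rad21, a cohesin subunit, stood at 26.7 and 25.0 against 34.5 and 37.4 FPKM (0.47 ± 0.08, limma adjusted p = 0.017). The sham hearts, at 32.5 to 34.1 FPKM, lay between the genotypes. The twelfth rise, 6430706D22Rik, is a clone-named gene.

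Lists of energy metabolism held no gene that passed. Over all genes, 6.64% were higher and 6.12% lower at an unadjusted p under 0.05. Of 34 genes of fatty acid oxidation 0 passed in limma, with 8 higher and 3 lower at an unadjusted p under 0.05 and a median of 0.12. Ech1, an enzyme of fatty acid oxidation, stood at 923 and 901 against 1290 and 1186 FPKM (0.44, limma adjusted p = 0.095), and Acot1, an acyl-CoA thioesterase, at 0.780 and 1.69 against 5.22 and 2.28 FPKM (1.25, limma adjusted p = 0.17). Of 60 genes of oxidative phosphorylation 0 passed, with 3 higher and 0 lower at an unadjusted p under 0.05 and a median of 0.06. Of 19 potassium channel genes 0 passed, with 5 higher and 1 lower at an unadjusted p under 0.05. Kcna5, a channel of repolarisation that was also on the list of atrial markers, stood at 10.5 and 7.30 against 18.3 and 15.6 FPKM (0.91, limma adjusted p = 0.052).

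The same genotypes were then compared in sham hearts, which share no heart with the TAC comparison. There 1 of 12589 genes passed in limma (0.00794%), Esr1, and 423 had an unadjusted p under 0.05. The 51 other genes that differed after TAC had sham values on both sides of 0, and 5 of the 52, Esr1 included, had an unadjusted p under 0.05 in sham hearts. The positions of the 40 falls against the sham hearts use the same TAC hearts that chose these genes, which favours high control and low CKO values. The shares over all genes were not counted, so these positions are given as a description only. Of the 40 falls, 36 had both control TAC hearts above all 4 sham hearts of 2 weeks. In those 36 the CKO TAC hearts were above all sham hearts in 15, overlapped with them in 19 and were below them in 2, Clu and Prune2. In the 4 other falls the control TAC hearts overlapped with sham hearts and the CKO TAC hearts lay below them.

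Whether the genotype difference itself changed with the load was tested as the difference after TAC minus that in sham hearts. In limma 2 genes passed (0.0159%), both lower: Clu at -1.60 ± 0.17 (adjusted p = 0.0028) and Des at -0.88 ± 0.12 (adjusted p = 0.020). At an unadjusted p under 0.05 there were 997 genes. Xirp2 (-1.61 ± 0.25) and Prkab2 (-1.02 ± 0.16) both had a limma adjusted p of 0.052. Clu passed whichever of the 8 hearts was left out, but not without the hearts of Myl7 at 10 FPKM or more (adjusted p = 0.13). Des did not pass without heart 12, 14, 16, 31 or 32 (limma adjusted p = 0.216, 0.0633, 0.0735, 0.0749 and 0.168), without the Myl7 hearts (0.14), in a fit of these 8 hearts alone (0.389) or with a prior without trend (0.0798).

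At 4 weeks after TAC, in other hearts, 105 of 12589 genes passed in limma (0.834%), 29 higher and 76 lower in CKO (0.604%). Of the 52 genes of 2 weeks, 20 passed again, which is 20 of the 105 at 4 weeks. All 40 falls had a negative value at 4 weeks, and 7 of the 12 rises, Esr1 among them, a positive one. The median over all genes at 4 weeks was 0.004, and the share of all genes that kept their sign was not counted. Comp stood at 16.0 and 11.6 FPKM in control hearts 1 and 2 and at 0.334 and 0.184 FPKM in CKO hearts 3 and 41 (-4.23 ± 0.46, limma adjusted p = 0.0011). Thbs4 stood at 21.7 and 31.7 against 4.61 and 2.00 FPKM (-2.90 ± 0.37, limma adjusted p = 0.0024), and Ltbp2 at 6.55 and 7.10 against 1.55 and 0.489 FPKM (-2.36 ± 0.31, limma adjusted p = 0.0026). These 3 matrix genes again showed no overlap. Cthrc1, the other fall of the matricellular list at 2 weeks, did not pass at 4 weeks. It stood at 1.00 and 2.82 against 0.155 and 0.284 FPKM (-1.64 ± 0.36, limma adjusted p = 0.053).

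The list of foetal and overload genes had a median of -0.78 at 4 weeks, beside -0.86 at 2 weeks. Clu stood at 528 and 453 FPKM in control and at 354 and 436 FPKM in CKO hearts (-0.31 ± 0.12, limma adjusted p = 0.32). Nppa stood at 3547 and 2761 against 1041 and 454 FPKM (-2.19 ± 0.55, limma adjusted p = 0.096), and Des at 1806 and 1832 against 1370 and 1290 FPKM (-0.45 ± 0.08, limma adjusted p = 0.021). Kif20a stood at 1.04 and 1.08 against 0.859 and 1.12 FPKM, with overlap, and the median of the cell cycle list was -0.14. When the genotype difference at 4 weeks was subtracted from that at 2 weeks, 1 gene passed in limma (0.00794%), Clu at -1.41 ± 0.17 (adjusted p = 0.013), and 658 had an unadjusted p under 0.05. Clu did not pass this test without control heart 32 (limma adjusted p = 0.106), CKO heart 31 (0.0551), control heart 2 of 4 weeks (0.0705) or the hearts of Myl7 at 10 FPKM or more (0.216), nor in the fit of these 8 hearts alone (0.359). Without CKO heart 3, 20 genes passed. Cep55 stood at 2.15 in this test (limma adjusted p = 0.11).

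**Figure D5:**
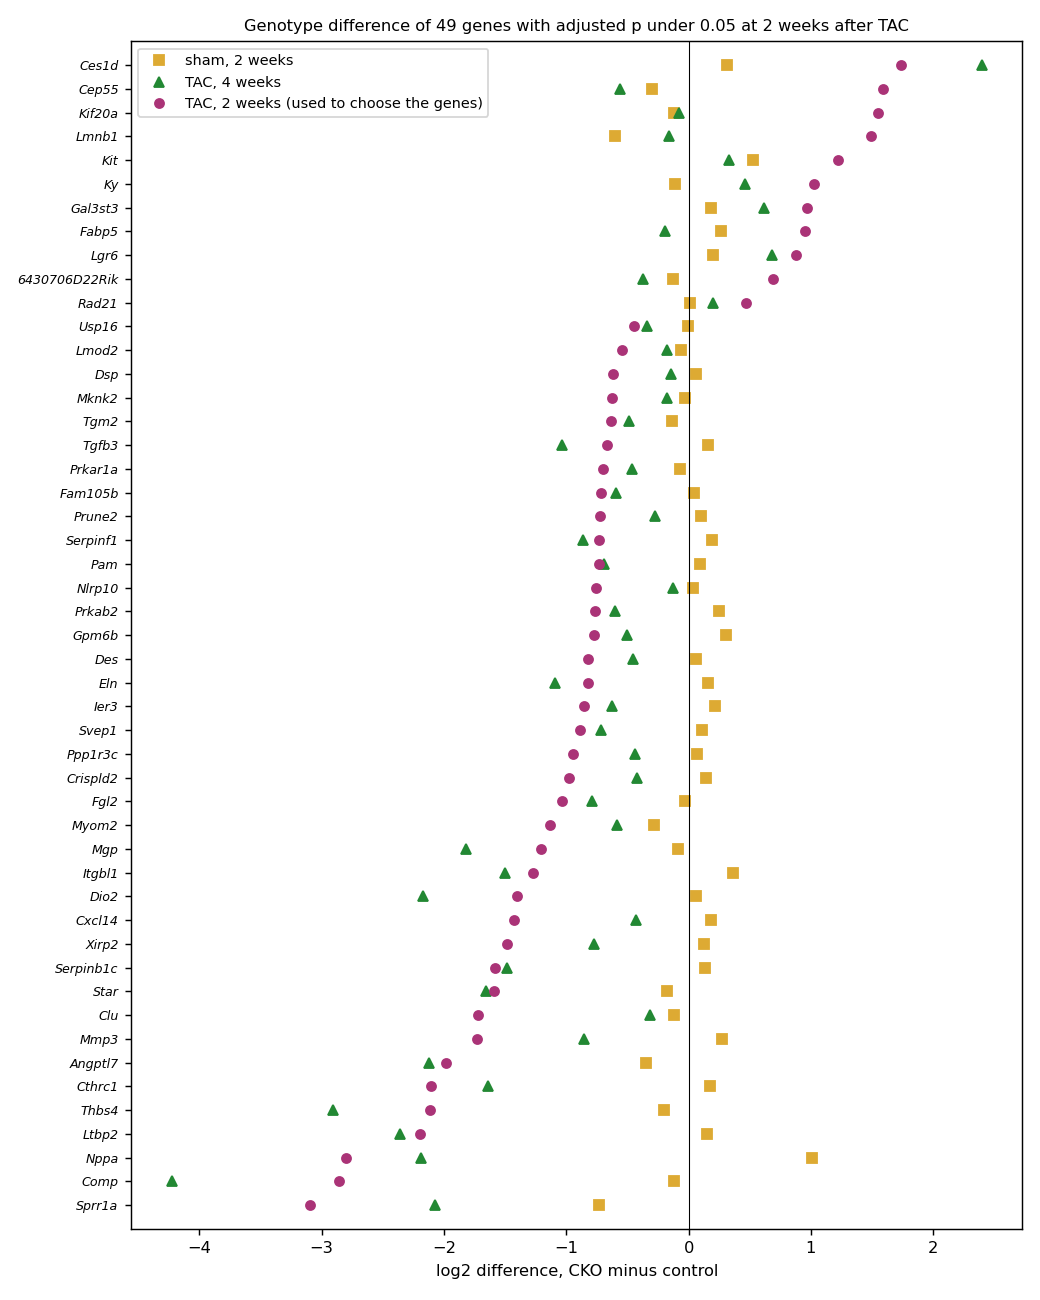
For 49 of the 52 genes (Esr1, which is off the scale, and 2 genes not reported here are left out) with a limma adjusted p under 0.05 at 2 weeks after TAC, the x axis gives the log2 difference, CKO minus control, in TAC hearts of 2 weeks (circles, the values that chose the genes), sham hearts of 2 weeks (squares) and TAC hearts of 4 weeks (triangles). All 38 falls shown have triangles left of 0, and squares lie on both sides of 0. The median over all genes at 4 weeks after TAC was 0.004.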

How the data were processed

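Messenger RNA of 20 mouse hearts was measured; the labels' protocols name the miRNeasy Mini and TruSeq Stranded mRNA kits. The authors, per the submitters' processing notes, used TopHat2 2.1.1 and Bowtie2 (version not given) with mm10, and Cuffdiff 2.2.1, and they deposited FPKM, 1 table of 23284 genes per heart. The tables hold no fragment counts, so absolute depth is unknown; relative depth was estimated from steps of low values, of which 96.4% lay within 5% of a whole multiple.

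Genes averaging at least 0.5 FPKM across all 20 hearts were analysed as log2(FPKM + 0.5) in limma 3.58.1 (R 4.3.3): 1 mean per group, all 10 groups, trended prior, 10 residual degrees of freedom, Benjamini-Hochberg adjustment, threshold 0.05. Groups come from the labels. P-values measure the spread between hearts, which are taken as separate animals. Positions are those of GENCODE M21.

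The members and the 44 gene lists were chosen with earlier results of these data known. The named genes were drawn from the 12 rises that passed and from the 15 largest falls that passed with a mean of at least 1 FPKM and no overlap. Others came from up to 6 passing members of each list or the 2 with the smallest p, and Wnt5a, Esr1, Yap1, Wwtr1 and Myl7 were set beforehand. Further passing genes and list members (among them Pam, Prkar1a, Mgp, Myh7, Cilp, Postn, Mki67 and Col1a1) were chosen after their values were seen. The alternatives changed the pseudocount (0.1 or 1 FPKM), the filter (none or 3 FPKM), the scaling (median-ratio or quantile), the prior (no trend) or the hearts (the compared groups alone, each heart left out, or those at or above 10 FPKM of Myl7 left out). Figures were drawn with matplotlib 3.10.9.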

Additional observations from a re-analysis of the deposited data

Results flagged for a closer look

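The genotype difference of Clu after TAC was larger than that in sham hearts of 2 weeks, by -1.60 ± 0.17 on the log2 scale in a limma contrast of the 2 differences. Des differed in the same contrast by -0.88 ± 0.12. In both genes the 2 control TAC hearts were the highest of the 8 hearts.

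For Clu the genotype difference after TAC was also larger at 2 than at 4 weeks, by -1.41 ± 0.17 in the corresponding limma contrast, with control TAC hearts at 965 and 984 FPKM at 2 weeks and at 528 and 453 FPKM at 4 weeks.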

How the results depend on the processing

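CKO against control after TAC at 2 weeks gave 52 genes. It gave 96 with a pseudocount of 1 FPKM, 98 with no filter on low values, 110 with quantile normalization, 9 with only the groups compared, 33 without the hearts of Myl7 at 10 FPKM or more, and 5 to 119 with each heart left out. A heart left out leaves its partner alone, and the partner is then assumed to vary like the other groups. The count stayed within 1.5 times of 52 in the other settings that kept every heart (40 with a pseudocount of 0.1, 40 with a filter of 3 FPKM, 54 with median-ratio scaling and 55 with a prior without trend). The cause of these changes was not tested.

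In sham hearts 1 gene became 2 with no filter and with only the groups compared, 6 without the Myl7 hearts, and 1 to 5 with each heart left out. For TAC minus sham, 2 genes became 4 and 6 with pseudocounts of 0.1 and 1, 6 with no filter, 5 with a filter of 3 FPKM, 5 with quantile normalization, 6 with only the groups compared, 1 with a prior without trend, 5 without the Myl7 hearts, and 1 to 5 with each heart left out. For 2 minus 4 weeks, 1 gene became 3 with no filter, 2 with only the groups compared, 2 with a prior without trend, 2 without the Myl7 hearts, and 0 to 20 with each heart left out. At 4 weeks after TAC, 105 genes became 2 with only the groups compared, 63 without the Myl7 hearts, and 19 to 176 with each heart left out.

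No paired analysis was possible because each heart's number occurs once, so the groups share no replicate number. The labels do not say whether hearts with neighbouring numbers were prepared together. With 2 hearts a group, and without fragment counts, low genes such as Kit or Cep55 carry a counting error that cannot be given here.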

Other observations

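Of 37 interferon response genes, which mark innate immune signalling, 0 passed in limma, with 0 at an unadjusted p under 0.05 and a median of 0.32 (0.58 at 4 weeks). Both CKO hearts lay above both control hearts in 19 of the 37, against 22.3% of all genes, and below them in 1. The summed level was 670 and 507 FPKM in control and 665 and 827 FPKM in CKO hearts. Of 16 antigen presentation genes 0 passed, again with 0 at an unadjusted p under 0.05, both CKO hearts lay above both control hearts in 5 and below them in 0, and control heart 32 was the lowest, with a sum of 1288 FPKM against 1966 in control heart 11 and 1928 and 1924 in the CKO hearts. Cd74, the invariant chain of class II molecules, stood at 145 and 72.0 against 145 and 150 FPKM.

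Of 21 glycolysis and glucose uptake genes 0 passed, and the median was -0.14. At an unadjusted p under 0.05, 1 was higher and 8 lower, against 6.64% and 6.12% of all genes. Pfkp, the platelet-type phosphofructokinase, stood at 44.5 and 46.9 against 26.3 and 28.1 FPKM (-0.74, limma adjusted p = 0.061), and Ugp2, which makes the sugar donor for glycogen, at 228 and 234 against 184 and 148 FPKM (-0.49, limma adjusted p = 0.14). Neither pair of groups overlapped. Hba-a1, a haemoglobin gene of red cells, stood at 902 and 1642 against 2185 and 1085 FPKM, with overlap. In the control pair 25 genes, and in the CKO pair 18, were listed at 0 in one heart and at 5 FPKM or more in the other.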
